A study of Mus musculus with 46 samples.

Results

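The 10 genes Acta2, Tagln, Des, Vim, Pdgfrb, Thy1, Lrat, Timp1, Lum and Dcn, in common use as markers of stellate cells and of the myofibroblasts they give rise to, were followed in mouse islets and livers. They were taken by symbol from the 55487 genes listed for each of 46 libraries, and each of the 10 symbols stood at 1 gene identifier. No measured value entered that rule, but the 10 genes were chosen with earlier results of these data known.

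Stellate cells of the liver lie in the space between hepatocytes and the sinusoidal endothelium, where they store vitamin A as retinyl esters and hold collagen turnover in check. When the liver is injured they can lose these stores, take on a contractile cytoskeleton and lay down collagen, and are then called myofibroblasts. The pancreas has stellate cells of its own, and islets carry a dense capillary bed covered by pericytes, which share much of the same gene set.

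RNA came from 3 experiments of a study on how mitochondrial signals bear on the state of metabolic tissues. In the first, islets labelled Tfam control (5 female and 3 male libraries) or Tfam KO (4 female and 2 male) were compared. Tfam is a factor that packages mitochondrial DNA and takes part in its transcription. The second held islets labelled Clec control or Clec KO, called Clec16a in the sample descriptions, after a gene that regulates the removal of mitochondria, on diets given only as RFD (4 control, 4 KO) and HFD (6 control, 5 KO). The third held 6 control, 4 Mfn DKO and 3 Tfam KO livers, all with AAV in their sample descriptions. Mfn1 and Mfn2 encode the mitofusins, which fuse mitochondria. Every islet library came from islets kept in culture overnight, and every liver was flash frozen. The submitters say that both sexes were used. The labels give no strain, age, Cre line, promoter or allele, no sex for the Clec16a islets or the livers, and do not say which cells a deletion reached. Xist exceeded the Y-linked Ddx3y in all 19 Clec16a islet libraries, which were thus read as female. Replicates are labelled as biological ones, and whether each is 1 animal or a pool is not given.

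Libraries held 16235173 to 55810879 counts in the Clec16a islets, 41961114 to 56894510 in the livers and 55223041 to 83342809 in the Tfam islets. Levels below are CPM, counts scaled to library size within an experiment, and levels compared between genes or tissues are TPM, which also divide by gene length. In knockout islets Tfam stood at 17.2 ± 1.11 CPM (SD, n = 6) against 39.7 ± 2.26 (n = 8) in controls, and in knockout livers at 14.7 ± 1.43 (n = 3) against 58.9 ± 4.02 (n = 6). In the Mfn DKO livers Mfn1 was at 20.2 ± 4.30 CPM (n = 4) against 80.8 ± 7.58 in controls, and Mfn2 at 38.1 ± 5.35 against 156.7 ± 28.4. Clec16a was not lower in the libraries labelled KO, at 26.5 ± 2.75 CPM against 24.3 ± 3.71 on RFD and 28.1 ± 3.31 against 26.6 ± 3.60 on HFD, so its RNA does not check those labels, and every direction given for them rests on the label alone. In such bulk samples fewer cells of a type and less RNA per cell cannot be told apart.

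Promoter sequence of the members was looked at first, because serum response factor acts on smooth muscle and myofibroblast genes through CArG boxes. Of the 10 members 5 are reported (Acta2, Des, Vim, Lrat and Timp1), each with 250 bases before the start of the transcript in RefSeq's table on GRCm38.p6. Pdgfrb, Tagln, Lum, Dcn and Thy1 are not reported, so nothing is said here of their promoters. No CArG box with every letter in place was found in those 5 stretches on either strand, against 1.47% of 32851 stretches of that length from all genes. After that result was seen, boxes with at most 1 letter off were searched too. Acta2 had 2 of them, beginning 84 and 34 bases before the start, and Lrat had 1, at 223 bases. At least 1 such box occurred in 18.6% of all stretches, and at least 2 in 2.96%. The letters TATAAA, present in 12.4% of all stretches, occurred in Vim, 32 bases before the start. The 4 sites are printed because the genes that hold them, Acta2, Vim and Lrat, return in the results below, with the match in capitals, read 5′ to 3′ on the strand of the gene.
Acta2, chr19:34255438-34255467, minus strand: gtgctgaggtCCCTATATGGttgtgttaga
Acta2, chr19:34255388-34255417, minus strand: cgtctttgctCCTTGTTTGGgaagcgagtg
Vim, chr2:13574267-13574296, plus strand: tcctaacagtgtTATAAAagcagcgccctt
Lrat, chr3:82904178-82904207, minus strand: cttctcaccgCCAAGAAAGGtgctccattc
The positions are those of GRCm38.p6. GENCODE M21 annotates longer transcripts of Acta2 and Vim, so that both Acta2 sites and the Vim site lie in a 5′ exon there. A match is a description of these letters and not a measured binding site.

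The members' genes were placed on GRCm38 with GENCODE M21, in which 55227 of the 55487 identifiers were found. Acta2 (ENSMUSG00000035783) spans chr19:34241090-34255590, Vim (ENSMUSG00000026728) chr2:13573927-13582826, Pdgfrb (ENSMUSG00000024620) chr18:61045150-61085061 and Lrat (ENSMUSG00000028003) chr3:82892579-82903973. Dcn (ENSMUSG00000019929, chr10:97479609-97518143) and Lum (ENSMUSG00000036446, chr10:97565128-97572703) are neighbours on the plus strand of chromosome 10. Des (ENSMUSG00000026208) spans chr1:75360329-75368579, Thy1 (ENSMUSG00000032011) chr9:44043384-44048579 and Timp1 (ENSMUSG00000001131) chrX:20870166-20874735. Tagln (ENSMUSG00000032085, chr9:45929619-45936058) shares 67.9% of its exon bases with genes on the other strand, 1241 of them with the antisense gene Gm48529 and 108 with Pcsk7. Whether the counting used strand is not given in the sources used here, so reads of Tagln and its partners may be mixed and its values are uncertain. Des shares 5.9% of its exon bases with the antisense gene Gm15179, and the other members share none.

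Lrat and Dcn set the livers apart from the islets. Lrat, the enzyme that esterifies retinol for storage and a defining gene of quiescent stellate cells, had a median of 11.9 TPM over the 13 livers and 0.0152 TPM over the 33 islet libraries. It was at or under 3 counts in 26 of those 33 libraries, at 0 in 14 of them, and at 16 counts at most. A count of 0 allows up to 3 counts, or 0.036 to 0.185 CPM at these depths, for counting error only. Islets thus carried the cytoskeletal and receptor members without detectable Lrat in most libraries, so the name stellate cell is not borne out there by this gene. Dcn, a small leucine-rich proteoglycan that binds collagen fibrils, was the highest member in livers at a median of 76.6 TPM and stood at 1.17 TPM in islets. Lum, its neighbour and relative, was at 10.5 TPM in livers and 0.845 in islets. These differences between tissues were not tested, since islets and livers were separate experiments handled in different ways.

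In the livers the order of median levels was Dcn at 76.6 TPM, Vim at 17.3, Lrat at 11.9, Lum at 10.5, Des at 3.66, Pdgfrb at 3.64, Acta2 at 2.95, Thy1 at 1.92, Timp1 at 0.831 and Tagln at 0.333. Dcn, at 53.6 TPM or more in every liver, lay above all values of Vim, at 43.8 or less, and Lum, at 6.69 or more, lay above all values of Des, at 6.42 or less. The other pairs of neighbours in that order overlapped in range. In all islets Vim, the intermediate filament of mesenchymal cells, led with 6.43 TPM, followed by Acta2, the smooth muscle actin of myofibroblasts and mural cells, at 6.06, and Pdgfrb, the PDGF receptor of pericytes and stellate cells, at 5.45. Those 3 overlapped in range, so their order is not beyond the spread of the libraries. Tagln, an actin-binding protein of smooth muscle, was at 4.71 TPM in the Clec16a islets and 0.209 in the Tfam islets, the widest gap of any member between the islet experiments. Its antisense partner Gm48529 differed in the same direction, at 2.71 ± 0.685 CPM (n = 19) and 0.276 ± 0.0956 (n = 14). The part of that overlap in the gap was not tested.

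**Figure D1:**
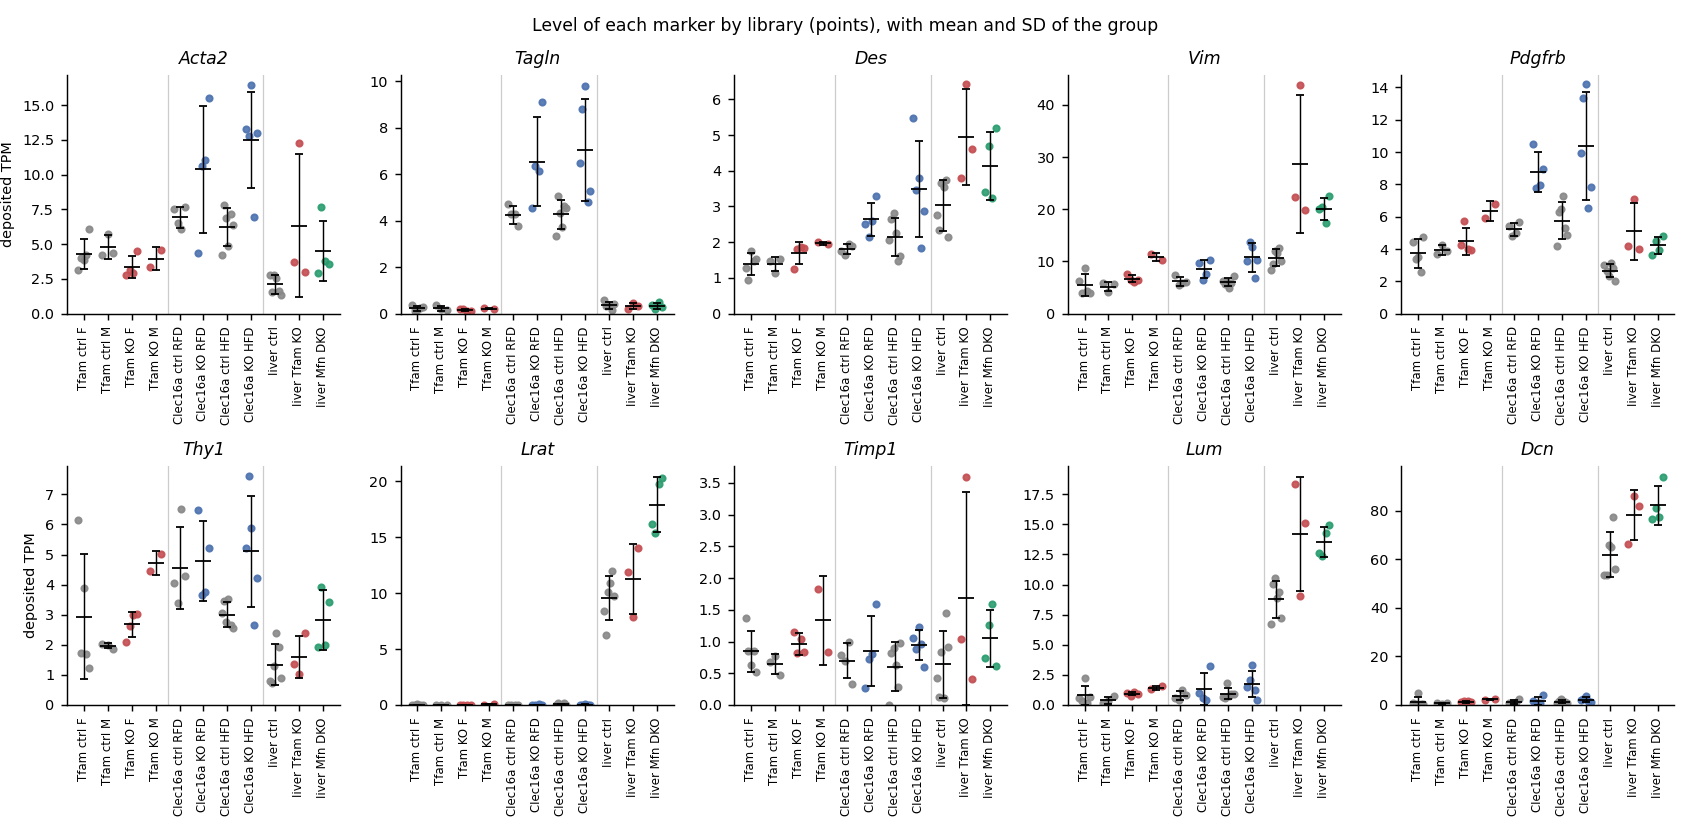
Deposited TPM of the 10 markers in each of the 46 libraries (points), by group on the x axis, with the group mean and SD (black, bars cut at 0). Lrat, Lum and Dcn are high in the 13 livers and low in islets, and Tagln is high in the Clec16a islets alone.

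Pdgfrb, Vim and Acta2 rose in islets labelled Clec16a KO on HFD, and Pdgfrb rose on RFD. Of the 9 members tested (Lrat was too low), 3 passed an adjusted p of 0.05 in edgeR's quasi-likelihood test on HFD, all 3 higher, and 9.57% of the 17254 genes tested did so. On RFD 1 of 9 passed, where 7.52% of all genes did. All 9 members had a fitted change above 0 on both diets, with a median log2 fold change of 0.55 on HFD and 0.50 on RFD, while the median over all genes tested was 0.00 on each. On RFD this turned on KO replicate 4, without which Timp1 (-0.20), Lum (-0.23), Dcn (-0.37) and Thy1 (-0.0003) were below 0. Thy1 was also below 0 without control replicate 2 or 4 or KO replicate 1. DESeq2's Wald test called 3 members on HFD and 1 on RFD. The 2 comparisons share no libraries.

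Pdgfrb is the receptor through which PDGF draws pericytes and stellate cells to grow and migrate. On RFD its control libraries stood at 14.7, 14.4, 12.4 and 13.7 CPM and the KO libraries at 27.2, 20.02, 20.2 and 22.6. Every KO library lay above every control. The fitted log2 fold change was 0.70 ± 0.17 (SE; 1.63-fold, 95% interval 0.37 to 1.04 on the log2 scale, adjusted p = 0.0171). On HFD the 6 controls ran from 12.3 to 18.1 CPM with a median of 15.2, and the 5 KO libraries stood at 24.1, 30.5, 28.0, 16.5 and 19.6. Here 4 KO libraries lay above all controls and replicate 4, at 16.5, lay among them. The change was 0.64 ± 0.15 (1.56-fold, adjusted p = 0.00948). The RFD call was lost without control replicate 3 (0.66, adjusted p = 0.0607) or control replicate 4 (0.70, adjusted p = 0.0517), whereas the HFD call held in all 11 fits that left out 1 library.

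Vim on HFD stood at 10.2 to 17.0 CPM in the 6 controls, with a median of 13.9, and at 21.2, 27.3, 21.8, 15.0 and 22.2 in the KO libraries. Again 4 KO libraries lay above all controls and replicate 4 lay among them. The log2 fold change was 0.62 ± 0.15 (1.54-fold, adjusted p = 0.0142), and it fell outside the threshold without KO replicate 2 (0.52, adjusted p = 0.0587). On RFD Vim was at 12.6 to 17.3 CPM in controls and 14.5 to 22.5 in KO libraries, groups that overlapped (0.41 ± 0.18, adjusted p = 0.178).

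Acta2 on HFD ran from 4.70 to 8.43 CPM in the 6 controls, with a median of 6.85, and stood at 12.94, 11.68, 12.99, 6.99 and 13 in the KO libraries. The library at 6.99, replicate 4 once more, was the only KO library within the control range. The log2 fold change was 0.79 ± 0.23 (1.73-fold, 95% interval 0.34 to 1.24, adjusted p = 0.0344). This call was a narrow one: it held in 3 of the 11 fits without 1 library, with adjusted p from 0.00537 to 0.0996. It was lost without any 1 of control replicates 1, 4, 5 and 6 or KO replicates 1, 2, 3 and 5. On RFD controls ran from 6.08 to 8.10 CPM, and the KO libraries stood at 4.57, 10.99, 11.2 and 15.6. So 3 of 4 KO libraries lay above and replicate 1 below all controls (0.54 ± 0.27, adjusted p = 0.247), and without replicate 1 the change was 0.78 with an adjusted p of 0.0367.

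Tagln had fitted changes of 0.57 ± 0.21 on RFD (adjusted p = 0.0990) and 0.50 ± 0.18 on HFD (adjusted p = 0.0773). For Des, the muscle-type intermediate filament found in stellate cells and pericytes, the RFD controls at 3.15 to 3.39 CPM lay below all KO libraries at 3.81 to 5.66, with a change of 0.50 ± 0.26 that did not pass (adjusted p = 0.271). Des and Pdgfrb were the 2 of 9 members whose groups did not overlap on RFD, a pattern that 15.1% of all genes tested showed. On HFD none of the 9 did, and 2.6% of all genes did. Thy1, a surface glycoprotein of fibroblasts and also of T cells and neurons, differed by 0.04 ± 0.24 on RFD (95% interval -0.44 to 0.52) and 0.55 ± 0.21 on HFD (adjusted p = 0.114). For the matrix genes the intervals were wide. Lum had fitted differences of 0.80 ± 0.57 and 0.66 ± 0.48, Dcn of 0.49 ± 0.47 and 0.44 ± 0.40, and Timp1, the inhibitor of matrix metalloproteinases, of 0.32 ± 0.59 and 0.47 ± 0.52 on RFD and HFD, and none passed. Timp1 rested on 0 to 37 counts per library in this experiment.

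**Figure D2:**
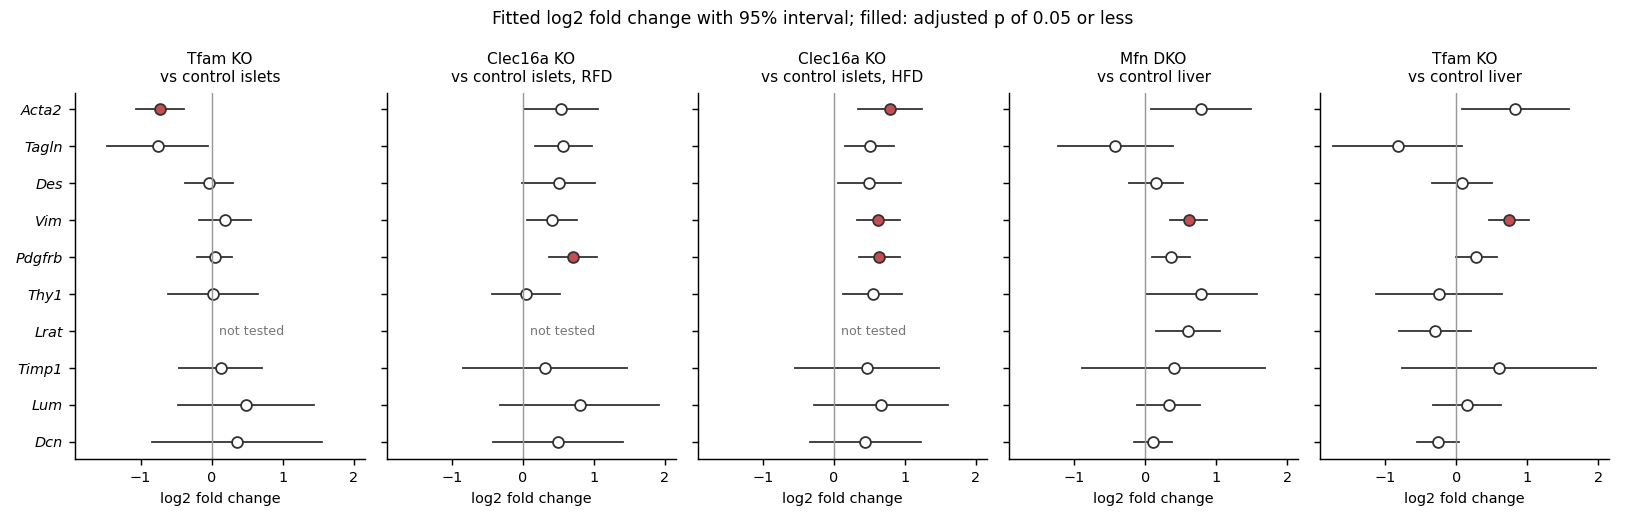
Fitted log2 fold change of each marker (points) with its 95% interval (lines) in 5 comparisons of knockout with control, on a shared x axis. The intervals treat the estimate as normally distributed and are narrower than the test implies. Filled points passed an adjusted p of 0.05: Acta2 is below 0 in Tfam islets, Pdgfrb above 0 on RFD, Acta2, Vim and Pdgfrb above 0 on HFD, and Vim above 0 in both liver comparisons.

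Genes of contractile cells, pericytes and endothelium moved with these members. Of 11 contractile genes tested, 5 rose on RFD and 7 on HFD and none fell, among them Myl9, the smooth muscle myosin light chain (0.74 ± 0.16, adjusted p = 0.0106, on RFD and 0.65 ± 0.14, adjusted p = 0.00602, on HFD). Of 10 pericyte genes, 4 rose on RFD and 5 on HFD, including the receptor Notch3 (0.62 ± 0.18 and 0.70 ± 0.15) and Gucy1b1, a subunit of the nitric oxide receptor (0.56 ± 0.15 and 0.63 ± 0.13). Of 13 genes of quiescent stellate cells, 3 rose on RFD and 2 on HFD, with Steap4 at 1.18 ± 0.32 and 0.89 ± 0.27 and Ecm1 at 0.64 ± 0.19 and 0.55 ± 0.17. Among 19 matrix and TGF beta response genes, 2 rose and 1 fell on RFD and 4 rose and 1 fell on HFD. The collagen gene Col1a2 changed by 0.66 ± 0.19 and 0.87 ± 0.17 and the collagen-binding protein Sparc by 0.91 ± 0.21 and 0.66 ± 0.18, while the lysyl oxidase Loxl2 fell by 0.59 ± 0.14 and 0.45 ± 0.12. Of 5 small leucine-rich proteoglycans other than Lum and Dcn none passed on either diet in edgeR, 3 having an unadjusted p under 0.05 on each and DESeq2 calling 1 on each.

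Endothelial markers rose with a similar size: 10 of 12 on each diet, with median log2 fold changes of 0.71 and 0.60. Tek, the angiopoietin receptor, changed by 0.97 ± 0.16 on RFD and 0.73 ± 0.14 on HFD, and Kdr, a VEGF receptor, by 0.72 ± 0.13 on RFD. The summed level of the 12 endothelial markers was 514.6 to 533.5 CPM in RFD controls and 837.1 to 959.1 in RFD KO libraries. On HFD it was 483.2 to 614.3 in controls and 877.7 to 1009 in 4 KO libraries, but 537.5 in KO replicate 4, the library with the lowest Acta2, Pdgfrb and Vim of its group. That library also had the lowest sum of the 10 pericyte genes, 157.7 CPM against 249.7 to 354.8 in the other 4. Without it, 6 of 9 members passed on HFD: Acta2 (0.93), Pdgfrb (0.75), Vim (0.73), Thy1 (0.70), Des (0.65) and Tagln (0.59). Leaving out the KO library lowest in Acta2, Pdgfrb and Vim raises their changes by construction. The share of all genes called in that fit is not given here, so the count is not a result about the members. None of the 12 endothelial or 10 pericyte markers was at 0 throughout a group. The part of endothelial and pericyte content in the members' changes was not tested.

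Acinar markers, a measure of exocrine carry-over, were lower in KO libraries at all 10 genes on each diet, with medians of -0.39 and -0.30, though none passed in edgeR or DESeq2 and none had an unadjusted p under 0.05. Their summed level ranged from 2029 to 13740 CPM in RFD KO libraries and from 4666 to 10170 in RFD controls. T cell markers, of which Thy1 can be one, summed to 6.11 to 8.63 CPM in RFD KO libraries against 4.06 to 4.15 in controls. On RFD none of 7 passed in edgeR, 2 having an unadjusted p under 0.05 and DESeq2 calling 1. On HFD 1 of 7, Trac, rose (1.81 ± 0.51). Of 10 macrophage markers 1 passed on each diet, C1qa, which fell (by 1.02 ± 0.18 and 0.61 ± 0.16), while 5 had values above 0 on RFD and 6 on HFD. The lane number, which only the deposited file names give, did not separate the groups, and within lanes 7 and 8 the mean log2 CPM of Pdgfrb was higher in KO libraries by 0.67 and 0.62 on RFD (1 KO library in lane 8) and by 0.45 and 0.76 on HFD. Within those lanes on HFD, Vim was higher by 0.55 and 0.70 and Acta2 by 0.88 and 0.75.

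**Figure D3:**
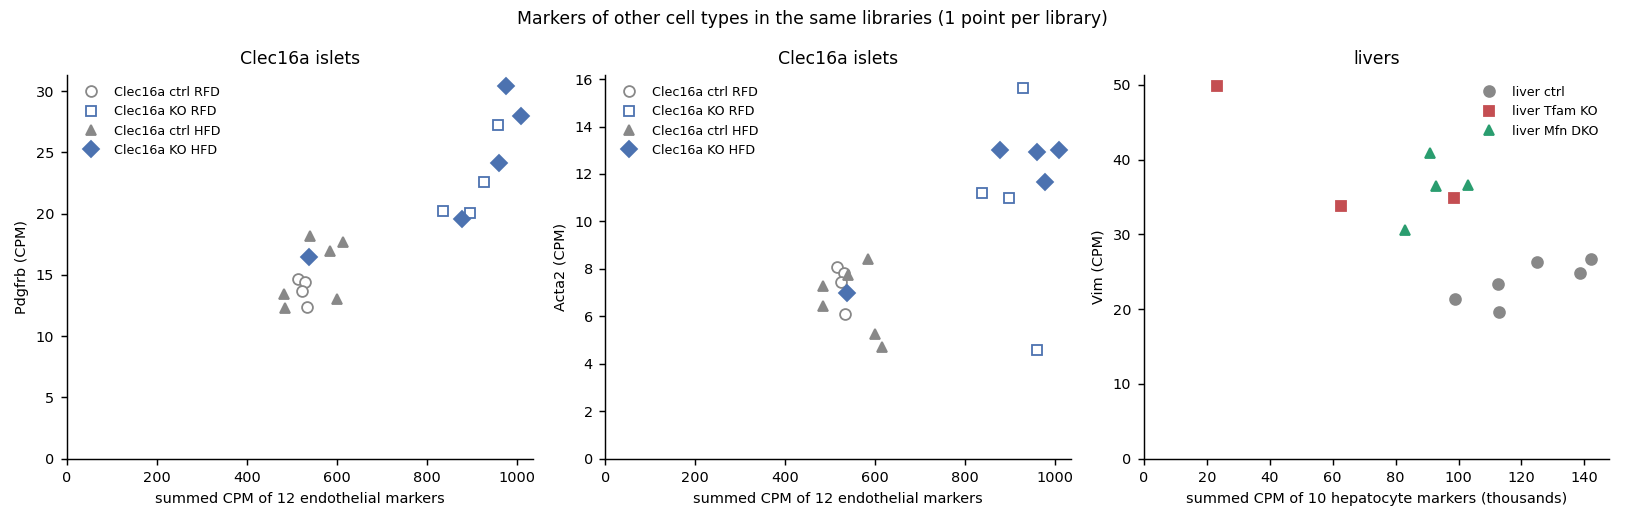
CPM of Pdgfrb and Acta2 against the summed CPM of 12 endothelial markers in the 19 Clec16a islet libraries, and of Vim against the summed CPM of 10 hepatocyte markers in the 13 livers, 1 point per library. KO replicate 4 on HFD (endothelial sum 537.5) lies with the controls, and the Tfam KO liver with the lowest hepatocyte sum (23190) has the highest Vim.

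Diet and its interplay with the genotype were tested in the same fit. Between HFD and RFD no member of 9 passed in control islets (1 with an unadjusted p under 0.05, none by DESeq2), where 0.0406% of all genes did, and none passed in KO islets (none with an unadjusted p under 0.05, none by DESeq2), where 0.0116% did. The member with the unadjusted p under 0.05 was Thy1. Its 4 RFD controls stood at 5.95, 5.55, 8.86 and 5.69 CPM and its 6 HFD controls at 3.52 to 5.15, with a median of 4.44. These groups did not overlap, as for 1.49% of all genes, yet the change of -0.57 ± 0.22 had an adjusted p of 0.733. Acinar markers had fitted values above 0 between these diets at all 10 genes, with a median of 1.19. None of them passed in edgeR or DESeq2, 9 having an unadjusted p under 0.05, and their part in Thy1 was not tested. The interaction of genotype with diet was called for none of 9 members in edgeR or DESeq2, none having an unadjusted p under 0.05, as for 0.0% of all genes. Its 95% interval for Pdgfrb ran from -0.50 to 0.38 and for Acta2 from -0.44 to 0.95.

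In Tfam islets Acta2 fell, and it was the only one of 9 tested members to pass, where 20.9% of 19752 genes did. DESeq2 also called 1. In female controls Acta2 stood at 3.02, 3.93, 3.97, 5.57 and 6.03 CPM and in female KO libraries at 2.08, 2.51, 2.30 and 3.58. In males the controls stood at 4.12, 5.91 and 4.51 and the KO libraries at 2.77 and 3.53. The male groups did not overlap, and in females 1 control lay below 1 KO library. With sex as a term the change was -0.72 ± 0.17, or 0.605 times the control level (95% interval -1.06 to -0.39 on the log2 scale, adjusted p = 0.00651). It kept its direction and its call in each of 14 fits without 1 library, with adjusted p from 0.00274 to 0.0198. Within the sexes the mean log2 CPM was lower by 0.76 in female and 0.61 in male KO islets, given here as sizes.

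Tagln had a change of similar size, -0.76 ± 0.36, on 5 to 25 counts per library, and did not pass (adjusted p = 0.157). Des (-0.04 ± 0.17, 95% interval -0.37 to 0.30), Pdgfrb (0.04 ± 0.12, -0.20 to 0.28) and Vim (0.18 ± 0.19, -0.19 to 0.55) had intervals around 0, and those of Thy1 (0.02 ± 0.32) and Timp1 (0.13 ± 0.30) were wider. No member's groups were without overlap across both sexes, against 7.49% of all genes tested. The median change of the 9 members was 0.04, and that of all genes -0.01.

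Dcn and Lum in these islets turned on a single control library. Female controls had 1.67, 0.748, 13.4, 1.06 and 1.301 CPM of Dcn and 0.634, 0.392, 2.53, 0.207 and 0.723 of Lum. Female KO libraries had 2.10, 3.11, 3.76 and 2.20 of Dcn and 0.855, 0.690, 0.919 and 0.828 of Lum. In males the controls had 2.16, 0.616 and 2.14 of Dcn and the KO libraries 4.94 and 5.09. Control replicate 3 of the females was thus the highest of all 14 for both genes. For Dcn the female KO libraries lay above the other female controls, and the male KO libraries above the male controls. Across the sexes the groups overlapped even without that library: male controls at 2.16 and 2.14 lay above the lowest KO library, a female one at 2.10. With all libraries the changes were 0.36 ± 0.61 for Dcn (adjusted p = 0.744) and 0.48 ± 0.49 for Lum (adjusted p = 0.550). Without that library they were 1.38 (adjusted p = 0.00164) and 1.05 (adjusted p = 0.0378), and Acta2 still passed. The same library had the highest summed macrophage markers of its group, 234.6 CPM against 121.2 to 177.2, with 1 of the 12 markers at 0 throughout that group, and the highest T cell sum, 10.1 against a group median of 3.03. The part of other cells in its Dcn and Lum was not tested.

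**Figure D4:**
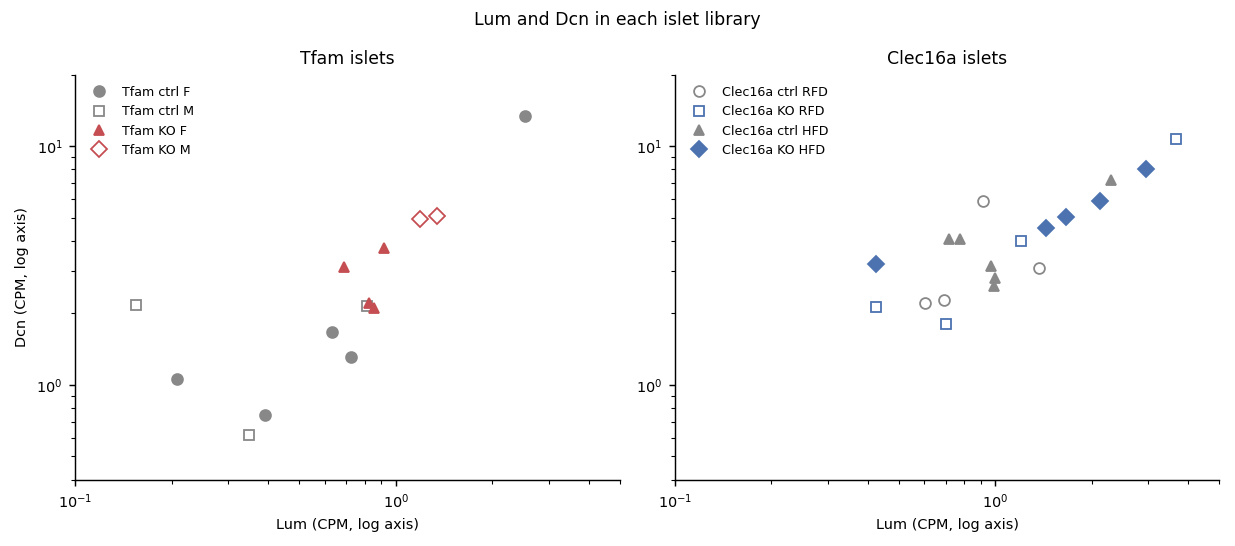
CPM of Dcn against CPM of Lum on log axes in the 14 Tfam islet and 19 Clec16a islet libraries, 1 point per library. The Tfam control library at 2.53 CPM of Lum and 13.4 of Dcn stands apart from the other controls, and in the Clec16a islets the 2 genes rise together.

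Of 20 matrix and TGF beta response genes 3 rose and 1 fell in Tfam KO islets, a share near the 20.9% of all genes called. The fibrillar collagen Col3a1 rose from 9.41 ± 2.36 CPM (n = 8) to 19.8 ± 7.13 (n = 6), by 1.04 ± 0.18 (adjusted p = 5.5e-04). Col5a1, which starts collagen fibrils, rose by 1.18 ± 0.23, and Loxl2 fell by 0.69 ± 0.11. Of 6 small leucine-rich proteoglycans other than Lum and Dcn, 2 rose, Podn (1.99 ± 0.35) and Bgn (0.64 ± 0.14), and Aspn fell by 0.48 ± 0.16. Of 11 portal fibroblast and mesothelial genes 4 rose and none fell, among them the ectonucleotidase Entpd2 (2.599 ± 0.17) and the matrix protein Fbln2 (1.12 ± 0.31). Of 13 quiescent stellate genes 1 rose and 2 fell, and of 12 contractile genes 1 rose, Smtn (0.49 ± 0.11). Among 10 pericyte genes Rgs5 fell by 0.23 ± 0.07 and none rose. Endothelial markers had 1 of 12 higher, Stab2, and their summed level overlapped, at 400.6 to 513.3 CPM in controls and 406.1 to 528.8 in KO islets. Of 8 endocrine markers 6 fell, with Ins1 at -1.26 ± 0.10. The part of this fall in the members' values was not tested.

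The genotype effect did not pass for a difference between the sexes in any of 9 members (0.0% of all genes passed). All 9 had a fitted interaction above 0 (the change in males minus that in females), with a median of 0.85 against 0.00 over all genes. For Acta2, lower in KO islets of both sexes, this meant a smaller difference in males. In edgeR 2 members had an unadjusted p under 0.05, Vim (0.85 ± 0.34) and Thy1 (1.43 ± 0.57), each with an adjusted p of 0.709, and DESeq2 called none. Vim stood at 20.3 and 17.2 CPM in male KO libraries and at 9.16 to 12.4 in male controls, while in females KO libraries at 10.3 to 12.51 lay within the controls at 8.32 to 19.5. Of 10 acinar markers none passed for this interaction in edgeR or DESeq2. All 10 had a value above 0 with an unadjusted p under 0.05 and a median of 2.30, and the 2 male KO libraries had acinar sums of 18870 and 3726 CPM. The part of exocrine tissue in this pattern was not tested.

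In livers Vim rose under both deletions. Of 10 members tested 1 passed in Mfn DKO livers, where 9.87% of 17024 genes did, and 1 in Tfam KO livers, where 29.3% did. It was Vim each time, and DESeq2 called 1 member in each. The 6 control livers had 19.6 to 26.7 CPM of Vim with a median of 24.1. Mfn DKO livers had 36.5, 36.6, 30.6 and 40.9, and Tfam KO livers 33.9, 49.9 and 34.9. Every knockout liver of either kind lay above every control. The changes were 0.61 ± 0.13 (1.53-fold, 95% interval 0.35 to 0.87, adjusted p = 0.0141) in Mfn DKO and 0.74 ± 0.14 (1.67-fold, 0.46 to 1.02, adjusted p = 0.00345) in Tfam KO livers. Both comparisons share the 6 controls. Each call held in every fit that left out 1 library, with adjusted p at most 0.0480 and 0.0199.

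Lrat was higher in Mfn DKO than in Tfam KO livers without overlap, but the difference did not pass. Its controls ran from 15.7 to 28.3 CPM with a median of 25.4. Mfn DKO livers stood at 33.4, 31.2, 39.4 and 41.4, all above every control, and Tfam KO livers at 20.3, 10.1 and 28.0, within or below the control range. The change in Mfn DKO was 0.61 ± 0.23 (1.52-fold, adjusted p = 0.109) and in Tfam KO -0.30 ± 0.26 (adjusted p = 0.408), neither of which passed. Tested directly, Tfam KO against Mfn DKO gave -0.90 ± 0.28 (95% interval -1.46 to -0.35, adjusted p = 0.119), without overlap. No member of 10 passed in that comparison in edgeR, with 2 at an unadjusted p under 0.05 (Lrat and Dcn), while DESeq2 called 1, Lrat (adjusted p = 0.0360), and 0.294% of all genes passed. Without Tfam KO replicate 3, edgeR called Lrat (-1.26), Thy1 (-1.65) and Dcn (-0.58). The 0.294% belongs to the fit with all livers, and the share of all genes called without that library is not given here. Lrat was 1 of 10 members without overlap between the deletions, as were 10.8% of all genes. Against controls, 2 members, Lrat and Vim, were without overlap in Mfn DKO livers (19.2% of all genes) and 1, Vim, in Tfam KO livers (20.9%).

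Acta2 stood at 1.42 to 2.99 CPM in control livers with a median of 2.09, at 2.50, 6.37, 3.09 and 2.98 in Mfn DKO and at 2.59, 6.46 and 2.46 in Tfam KO livers. In each knockout group 1 library, replicate 2, was high and the rest lay at or near the upper controls. The changes were 0.79 ± 0.36 (adjusted p = 0.173) and 0.83 ± 0.38 (adjusted p = 0.120). Tagln, at 7 to 25 counts per liver, had -0.43 ± 0.41 and -0.83 ± 0.46, the opposite sign, and Des 0.15 ± 0.20 and 0.08 ± 0.21. Pdgfrb differed by 0.37 ± 0.14 (adjusted p = 0.105) in Mfn DKO and by 0.28 ± 0.15 (adjusted p = 0.173) in Tfam KO livers, and Thy1 by 0.79 ± 0.40 and -0.25 ± 0.45.

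Dcn, at 146.5 to 199.0 CPM in controls, was at 172.2, 179.1, 168.3 and 209.0 in Mfn DKO and at 124.1, 120.8 and 177.8 in Tfam KO livers. Its change of -0.26 ± 0.15 in Tfam KO did not pass (adjusted p = 0.213), and without Tfam KO replicate 3 it was -0.48 (adjusted p = 0.0143). Lum stood at 8.03 to 12.02 CPM in controls and at 14.4, 5.30 and 13.8 in Tfam KO livers, so 2 lay above and replicate 2 below all controls. Without that library its change went from 0.15 ± 0.25 to 0.49 (adjusted p = 0.0464). Timp1, which hepatic myofibroblasts are known to release, rested on 2 to 59 counts per liver and had intervals from -0.89 to 1.69 in Mfn DKO and from -0.77 to 1.97 in Tfam KO livers. Over the 10 members the median change was 0.38 in Mfn DKO and 0.12 in Tfam KO livers, and over all genes 0.02 and 0.03.

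Replicate 2 of the Tfam KO livers stood apart in several members. It had the highest Vim, Acta2 and Timp1 and the lowest Lrat, Lum and Thy1 of the 3. Its summed hepatocyte markers were 23190 CPM against 62650 and 98660 in the other 2, 82980 to 103100 in Mfn DKO and 98750 to 142000 in control livers, and its contractile genes summed to 952.5 CPM against 469.2 and 540.2. None of the 10 hepatocyte markers was at 0 throughout a group. Without this library Vim still passed, at 0.54 (adjusted p = 0.0199), and Acta2 was at 0.22 (adjusted p = 0.739). Sex read from Xist and the Y-linked Ddx3y put 3 control livers with each sex, 2 Mfn DKO with each, and 2 female with 1 male Tfam KO liver. Within females and males, the mean log2 CPM of Vim was higher by 0.58 and 0.65 in Mfn DKO and by 0.69 and 0.66 in Tfam KO livers.

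Of 20 matrix and TGF beta response genes 2 rose in Mfn DKO livers, a share near the 9.87% of all genes called there, and 8 rose in Tfam KO livers, where 29.3% of all genes were called. None fell in either. Col1a1, a chain of type I collagen, stood at 4.88 ± 1.19 CPM (n = 6) in controls, 11.8 ± 1.97 (n = 4) in Mfn DKO and 13.5 ± 5.97 (n = 3) in Tfam KO livers, with changes of 1.27 ± 0.25 (adjusted p = 0.00857) and 1.46 ± 0.26 (adjusted p = 0.00253). Ccn2, a matrix protein induced by TGF beta, rose by 2.91 ± 0.57 in Tfam KO livers, at 5.07 to 68.4 CPM against 2.49 to 5.22 in controls. Of 13 contractile genes 2 rose and 2 fell in Mfn DKO and 5 rose and 1 fell in Tfam KO livers. Tpm1, a tropomyosin, rose by 1.08 ± 0.29 and 2.25 ± 0.31, while the myosin light chain kinase Mylk fell by 0.97 ± 0.20 and 1.19 ± 0.22. Of 14 genes of quiescent stellate cells 1 rose and none fell in Mfn DKO livers. In Tfam KO livers 1 rose and 1 fell, the latter Reln (by 0.27 ± 0.09). The 8 small leucine-rich proteoglycans tested other than Lum and Dcn were all below 0 in Tfam KO livers, with a median of -0.45, and none passed in edgeR, 2 having an unadjusted p under 0.05 and DESeq2 calling 1. Rgs5, a pericyte gene, rose by 0.78 ± 0.14 in Mfn DKO livers.

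Other cell types moved too. In Tfam KO livers 4 of 10 hepatocyte markers fell and none rose, with a median of -1.05, among them Ttr (-1.35 ± 0.30) and Apoa1 (-1.63 ± 0.45). In Mfn DKO livers none passed as lower in edgeR and Tat rose (1.33 ± 0.34), with a median of -0.44. There 7 of 10 had values below 0. In either direction, 4 had an unadjusted p under 0.05 and DESeq2 called 3. Of 12 macrophage markers, a cell type that can itself carry Vim, 1 passed in each, the receptor Marco, at 2.596 ± 0.36 and 1.44 ± 0.38. All 12 had values above 0 in Mfn DKO livers, with a median of 0.47, but 9 of 12 had values below 0 in Tfam KO livers, with a median of -0.35. Their sums were 671.5 to 1271 CPM in control, 884.4 to 1925 in Mfn DKO and 431.4 to 1262 in Tfam KO livers. Endothelial markers had none of 12 called in either comparison in edgeR or DESeq2, with 2 at an unadjusted p under 0.05 in Mfn DKO and none in Tfam KO livers. The part of these cells in the change of Vim was not tested.

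The effect of Tfam deletion on Acta2 differed between the tissues. In a fit over the 27 libraries of both experiments, the log2 change in liver exceeded that in islets by 1.52 ± 0.43 (95% interval 0.68 to 2.37, adjusted p = 0.0158). It was the only one of 10 members called, where 19.7% of 21283 genes were. This difference turned on Tfam KO liver replicate 2, without which it was 0.90 (adjusted p = 0.182). Dcn had -0.89 ± 0.74, and -1.69 (adjusted p = 0.00204) without female control islet replicate 3. Tissue, experiment, culture and the means of deletion cannot be told apart here.

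How members varied among libraries of the same group was asked with group means removed, over 117 pairs in the 3 experiments. In the 19 Clec16a islet libraries 33 of 36 pairs were positive, with a median Pearson r of 0.35. Lum and Dcn had r = 0.81 (permutation p = 6.3e-04, adjusted 0.0146) and Spearman rho = 0.80 (permutation p = 0.00102, adjusted 0.0367), and r = 0.73 without the 2 libraries farthest from the median of Lum. Acta2 and Tagln had r = 0.78 (permutation p = 8.1e-04, adjusted 0.0146) and rho = 0.66 (permutation p = 0.00521, adjusted 0.0920), and r = 0.66 without the 2 farthest. No pair passed by Pearson r in the 14 Tfam islet libraries, with 21 of 36 positive, or in the 13 livers, with 23 of 45 positive. In Tfam islets Lum and Dcn had r = 0.69 (permutation p = 0.107, adjusted 0.795) and rho = 0.39 (permutation p = 0.276, adjusted 0.833), and r = 0.21 without the 2 farthest, so the relation there rested on those libraries. In livers Dcn and Thy1 had r = 0.82 (permutation p = 0.00392, adjusted 0.161) and rho = 0.88 (permutation p = 0.00113, adjusted 0.0509), and r = 0.74 without the 2 farthest.

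The genes most like a member in the same residual levels were listed by r alone, among the genes averaging 5 CPM or more. In the Clec16a islets those most like Dcn included Col3a1 (0.71) and Col14a1 (0.70) over 19 libraries. In livers they were Dok2 (0.97), Cd86 (0.97) and Vsig4 (0.96), and those most like Lrat were Ugt1a1 (0.95), Clec7a (0.95) and Gypc (0.95) over 13 libraries. For Acta2 they were Eloa (0.83), Ctnnbl1 (0.81) and Elp5 (0.80) in the Clec16a islets, Kctd9 (0.88), Alg9 (0.85) and Hnrnpr (0.85) in the Tfam islets, and B9d2 (0.87), Gstt2 (0.87) and Cystm1 (0.86) in livers. For Dcn in the Tfam islets they were Pml (0.93), Aldh1l2 (0.89) and Castor2 (0.87). The points share libraries and so their depth and cell content, and these values carry no test.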

How the data were processed

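The authors deposited 1 table per library with a raw count, a CPM value and a TPM value for each of 55487 genes. The deposited CPM equal counts over library totals (largest difference 5.8e-11), and the deposited TPM are the authors' own and were used only for levels between genes and tissues. The submitters' processing notes name STAR 2.6.1b, RSEM 1.3.1, featureCounts, DESeq2, FastQC, MultiQC and GRCm38, without role or order, so which program made the counts, and whether it used strand, is not given in the sources used here.

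From the deposited counts, genes were filtered with filterByExpr, scaled by TMM and tested with edgeR 4.0.16 (quasi-likelihood, R 4.3.3) within each experiment (and once across the Tfam islets and livers), over all genes, in 11 comparisons, with Benjamini-Hochberg adjustment and a threshold of 0.05. Sex was a term in the Tfam islets. The standard error is the log2 fold change divided by the square root of F. The 95% intervals treat the estimate as normally distributed and are narrower than the F-test implies. Some therefore exclude no change although the unadjusted p was above 0.05. CPM were recomputed on the scaled library sizes, and log2 CPM used a prior count of 2. Alternatives were DESeq2 1.42.0, no filter, other sample sets, each library left out, lane or sex as a term, and a replicate block. Correlations used log2 CPM less group means, with 100000 permutations. The scripts were tested on simulated data. The members and gene lists were chosen with earlier results of these data known. List genes named are among the 3 with the smallest adjusted p per list and comparison, and some results are not reported here. Intervals and floors cover counting or model error only. No 2 libraries held identical counts. Same-numbered replicates did not deviate together (median r 0.0653, -0.0163 and 0.0873 in the 3 experiments), so no block was used.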

Additional observations from a re-analysis of the deposited data

Results flagged for a closer look

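Of 80 combinations of gene and group with 4 to 10 libraries, 11 held a library far from the rest of its group by Dixon's ratio, and chance gives about 1 in 20. In CPM, these were Acta2 at 6.99 in replicate 4 of the islets labelled Clec16a KO on HFD and at 6.37 in replicate 2 of the Mfn DKO livers. In the female Tfam control islets replicate 3 was far from the others for Dcn (13.4), Lum (2.53) and Lrat (0.114, on a handful of reads). In the control islets on HFD replicate 3 was far from the others for Dcn (7.24) and Lum (2.29). The others were Des at 1.61 in replicate 1 and Pdgfrb at 11.4 in replicate 2 of the female Tfam KO islets, Thy1 at 8.86 in replicate 3 of the control islets on RFD, and Lrat at 0.118 in replicate 3 of the KO islets on RFD.

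The effect of Tfam deletion on Acta2 differed between liver and islets by 1.52 on the log2 scale in a test of that difference (edgeR, adjusted p = 0.0158). Without Tfam KO liver replicate 2 the difference was 0.90 and did not pass (edgeR, adjusted p = 0.182).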

How the results depend on the processing

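With DESeq2's size factors or without the filter, every comparison kept its number of called members. With the replicate block the number was 1 in Tfam islets, 1 on RFD, 2 on HFD (Acta2 lost, adjusted p = 0.0888), 0 in Mfn DKO livers (Vim 0.64, adjusted p = 0.0982) and 0 in Tfam KO livers (Vim 0.81, adjusted p = 0.0528), against 1, 1, 3, 1 and 1. Fitting only the 2 groups gave 2 in Mfn DKO livers (Lrat 0.60, adjusted p = 0.0116), and DESeq2 gave 1 in Tfam KO against Mfn DKO livers. No block could be fitted across both tissues. Leaving out 1 library gave 1 to 3 called in Tfam islets, 0 to 3 on RFD, 1 to 6 on HFD, 1 to 1 in Mfn DKO, 1 to 2 in Tfam KO, 0 to 3 between the 2 deletions, 0 to 2 between tissues, and 0 to 0 for diet and both interactions. The shares of all genes called in those fits are not given here.

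Signs turned only for members that did not pass. Under the block, Des was at 0.019, Timp1 at -0.080 and Thy1 at -0.053 in Tfam islets, Acta2 at -0.0033 in the interaction with sex, Timp1 at 0.16 between diets in KO islets (0.018 with lane), Thy1 at 0.052 in Tfam KO livers, and Acta2 at -0.042 (-0.035 with sex), Des at 0.013 and Timp1 at -0.091 between the deletions. With lane, Des was at 0.18 in the interaction with diet.

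Leaving out 1 library, log2 changes crossed 0 as follows. In Tfam islets Des ran from -0.11 to 0.056, Pdgfrb from -0.028 to 0.11, Timp1 from -0.17 to 0.25, Thy1 from -0.11 to 0.28, and Acta2 by sex from -0.022 to 0.35. On RFD Timp1 ran from -0.20 to 0.56, Lum from -0.23 to 1.12, Dcn from -0.37 to 0.92 and Thy1 from -0.14 to 0.22. Between diets in controls Timp1 ran from -0.46 to 0.039, Vim from -0.086 to 0.075, Tagln from -0.089 to 0.081 and Dcn from -0.0065 to 0.66. Between diets in KO islets Acta2 ran from -0.14 to 0.36, Pdgfrb from -0.026 to 0.19, Timp1 from -0.28 to 0.47, Tagln from -0.19 to 0.14, Lum from -0.14 to 1.22, Dcn from -0.072 to 1.04 and Thy1 from -0.24 to 0.12. In the interaction with diet Des ran from -0.26 to 0.14, Pdgfrb from -0.17 to 0.046, Timp1 from -0.10 to 0.67, Tagln from -0.20 to 0.13, Lum from -0.46 to 0.90 and Dcn from -0.48 to 0.81. In Tfam KO livers Des ran from -0.050 to 0.21, Lrat from -0.67 to 0.017, Timp1 from -0.29 to 0.98, Lum from -0.078 to 0.49 and Thy1 from -0.87 to 0.092. Between the deletions Acta2 ran from -0.56 to 0.43, Des from -0.19 to 0.059, Timp1 from -0.69 to 0.58, Vim from -0.071 to 0.23 and Lum from -0.41 to 0.16. Between tissues Des ran from -0.049 to 0.18, Timp1 from -0.55 to 0.74 and Tagln from -0.34 to 0.12. The cause of these shifts was not tested. Depth limits Lrat in islets, and Timp1 and, outside the Clec16a islets, Tagln throughout.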
